A study of Homo sapiens with 6 samples.

Results

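Caveolae are small flask-shaped pits of the plasma membrane, and 8 genes that encode their coat and neck were followed here out of 58219 gene identifiers counted. They were chosen by name, though with earlier results of these data known. They are the caveolins CAV1 and CAV2, the cavins CAVIN1, CAVIN2 and CAVIN3, and the neck proteins EHD2, PACSIN2 and PACSIN3. All 8 were found by symbol, and 7 of them had enough counts to be tested. The third caveolin CAV3, the muscle cavin CAVIN4 and the other EHD and PACSIN genes were read beside them as paralogs.

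Caveolin-1 inserts into the inner leaflet of the membrane and oligomerises into the scaffold of the pit, and caveolin-2 depends on it to reach the surface. Cavins are cytosolic proteins that assemble on this scaffold as an outer coat, with cavin-1 required for the coat to form. EHD2 is an ATPase that rings the neck and holds the pit at the surface, and PACSINs are F-BAR proteins that bend the neck membrane. Caveolin-1 was found as a major tyrosine-phosphorylated protein of cells transformed by the viral SRC kinase, and SRC family kinases, to which Yes belongs, phosphorylate it.

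Polyadenylated RNA of SNU-449, an established human line of hepatocellular carcinoma, was sequenced in 6 libraries. The 3 Yes T348I libraries came from cells stably expressing the kinase Yes with a changed gatekeeper residue, which lines the drug pocket, and the 3 Yes WT libraries from cells stably expressing wild-type Yes. Both lines were given dasatinib, a drug that blocks kinases of the SRC family and ABL, at 100 nM, and no library without the drug was analysed here. The comparison asks which transcripts differ when Yes is altered at the gatekeeper while the drug is present. The labels give neither how many clones stand behind each line nor how the 3 libraries of a line were grown. The p-values therefore rest on the variation among these libraries alone, and that variation may be technical. With 1 line per construct, a difference between constructs and a difference between lines cannot be told apart.

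Gene counts totalled 14392286 to 19608763 per library in Yes T348I and 14360137 to 16117573 in Yes WT. YES1, which can hold reads of both the native and the introduced gene, was at 409 ± 26.2 CPM (counts scaled to the library total) in Yes T348I and 364 ± 6.17 CPM in Yes WT (SD, n = 3 each), and was called higher (log2 fold change 0.17, SE 0.04, edgeR adjusted p = 9.94e-05). Across all genes 55.3% passed an adjusted p of 0.05, 28.0% higher and 27.3% lower in Yes T348I, with a median log2 fold change of -0.013, so a call by itself is common in this comparison. Of the 12 hepatocyte markers 9 stayed below 1 CPM in every library, among them the albumin gene ALB, and 3 had enough counts to be tested. The keratin genes KRT8 and KRT18 of simple epithelia were at 163 ± 8.50 and 261 ± 14.3 CPM in Yes T348I and at 172 ± 2.94 and 258 ± 6.17 CPM in Yes WT (SD, n = 3 each).

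Promoter windows were listed for 5 of the 8 genes, and those of 4 are shown because they stand for the 3 kinds of behaviour described below. CAV1 and CAV2 are abundant genes that were higher in Yes T348I, EHD2 is an abundant gene that did not pass the test, and CAVIN2 had almost no reads. Each window, from RefSeq on GRCh38.p14, runs from 250 bases before a transcript start to 50 bases after it, read 5′ to 3′ on the strand of the gene. Where a gene had several windows, the one holding most transcript starts of GENCODE 29 was taken. The windows lie at chr7:116524759-116525058 (plus strand) for CAV1, chr7:116499488-116499787 (plus strand) for CAV2, chr19:47713172-47713471 (plus strand) for EHD2 and chr2:191847039-191847338 (minus strand) for CAVIN2. Capitals mark the GC box GGGCGG and the TEAD core GGAATG, each searched on both strands.
CAV1: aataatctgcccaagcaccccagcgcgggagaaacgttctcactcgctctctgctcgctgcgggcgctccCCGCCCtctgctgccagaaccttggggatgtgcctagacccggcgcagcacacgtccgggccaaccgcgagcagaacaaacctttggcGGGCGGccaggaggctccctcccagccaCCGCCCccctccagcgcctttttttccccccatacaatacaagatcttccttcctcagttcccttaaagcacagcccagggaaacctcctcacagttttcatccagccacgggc
CAV2: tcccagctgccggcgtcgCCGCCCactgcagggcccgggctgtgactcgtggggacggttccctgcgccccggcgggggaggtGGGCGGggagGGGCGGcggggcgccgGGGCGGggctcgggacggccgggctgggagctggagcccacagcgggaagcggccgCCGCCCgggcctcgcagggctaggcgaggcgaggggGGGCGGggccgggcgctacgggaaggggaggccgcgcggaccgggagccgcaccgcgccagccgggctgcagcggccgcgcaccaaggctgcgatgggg
EHD2: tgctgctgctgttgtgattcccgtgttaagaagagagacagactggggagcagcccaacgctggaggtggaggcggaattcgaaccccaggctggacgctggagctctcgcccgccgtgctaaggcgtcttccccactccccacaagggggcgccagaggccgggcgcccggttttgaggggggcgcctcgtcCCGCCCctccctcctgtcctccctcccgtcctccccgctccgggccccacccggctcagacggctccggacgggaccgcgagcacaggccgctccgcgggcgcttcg
CAVIN2: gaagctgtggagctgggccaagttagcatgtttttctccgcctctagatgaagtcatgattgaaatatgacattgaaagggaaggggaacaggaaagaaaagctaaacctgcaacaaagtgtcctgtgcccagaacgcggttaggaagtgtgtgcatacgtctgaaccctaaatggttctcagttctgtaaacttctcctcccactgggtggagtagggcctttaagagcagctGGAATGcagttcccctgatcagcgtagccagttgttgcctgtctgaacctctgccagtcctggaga

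The GC box was matched 3 times in the CAV1 window, 6 times in the CAV2 window and once in the EHD2 window, and 44.9% of all 34943 windows of this length hold at least 1 match. No share over all windows stands beside the number of matches. The CAV1 windows not printed held 3 and 2 GC boxes, and the CAV2 window not printed held 4, all without a TEAD core. The TEAD core was matched once, in the CAVIN2 window, against 14.0% of all windows, and not in the other three printed here. Of the 6 PACSIN2 windows, which are not printed, 4 held 1 TEAD core and no GC box, 1 held 2 GC boxes and no TEAD core, and 1 held neither. The windows beginning at chr22:42959850, 42959832 and 42959807 overlap, and their TEAD core is 1 and the same site. None of the printed windows held both motifs, and the CArG box of SRF, held by 1.30% of all windows, had no match in these 4 windows. A match is a run of letters and not a shown binding site. The CAV2 window was 82.7% G and C, the CAV1 window 62.3%, the EHD2 window 71.0% and the CAVIN2 window 49.3%.

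The genes of the caveolar scaffold and of its main coat protein were higher in Yes T348I, while those of the neck proteins moved by less than 10%. CAV1, CAV2 and CAVIN1 rose, PACSIN2 fell by a small margin, and CAVIN3, EHD2 and PACSIN3 did not pass the test, so that 4 of the 7 tested genes (57.1%) were called, against 55.3% of all genes. In the 3 genes that rose the libraries of the groups did not overlap, as in 29.9% of all genes in that direction, and no gene of the group was lower without overlap, as 29.7% of all genes were. In all, 3 of the 7 tested genes had groups that did not overlap, against 59.5% of all genes tested. Ranked from the most negative to the most positive log2 fold change of all 14723 genes tested, CAV1, CAV2 and CAVIN1 stood at the 98.3rd, 98.3rd and 99.0th percentile. This rank is by sign and not by size, and the 5th percentile lay at -0.84, so that falls of such a size were more frequent than rises. No gene of the group reached 2-fold in edgeR (0 also at an unadjusted p under 0.05, and 0 with DESeq2 or limma-voom), as 4.08% of all genes did and 0.876% did in the higher direction. In such RNA from whole cultures, a change in every cell and a change in the share of cells that express a gene cannot be told apart.

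CAV1 (ENSG00000105974.11, GRCh38 chromosome 7, 116524785 to 116561184), which encodes the scaffold protein itself, was at 1308, 1347 and 1293 CPM in the Yes T348I libraries and at 747, 760.0 and 771 CPM in the Yes WT libraries. Every Yes T348I library was above every Yes WT library, and the spread within a group was small beside the gap. Its log2 fold change was 0.79 (SE 0.03, edgeR adjusted p = 1.36e-23), a rise of 1.73-fold.

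CAV2 (ENSG00000105971.14, chromosome 7, 116287380 to 116508541), the partner that forms hetero-oligomers with caveolin-1, was at 291, 294 and 288 CPM in the Yes T348I libraries and at 161, 172 and 174 CPM in the Yes WT libraries. The groups again did not overlap. The change of 1.72-fold (log2 fold change 0.78, SE 0.03, edgeR adjusted p = 1.98e-22) was close to that of CAV1.

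CAVIN1 (ENSG00000177469.12, chromosome 17, 42402452 to 42423517), also called PTRF, encodes the cavin without which the coat does not form. It was at 1215, 1177 and 1191 CPM in the Yes T348I libraries and at 615, 598 and 625 CPM in the Yes WT libraries. It had the largest change of the 7 tested genes, 1.95-fold, with no overlap between the groups (log2 fold change 0.96, SE 0.03, edgeR adjusted p = 1.59e-26).

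The other cavins were scarce in both lines. CAVIN3 (ENSG00000170955.9, chromosome 11, 6318946 to 6320647), also called SRBC, was at 2.46, 2.33 and 2.47 CPM in the Yes T348I libraries and at 2.14, 2.56 and 2.88 CPM in the Yes WT libraries, resting on 34 to 48 counts per library. The groups overlapped (log2 fold change -0.053, SE 0.19, edgeR adjusted p = 0.839), and the 95% interval of -0.43 to 0.33 leaves room for moderate changes either way. Exons of a gene on the opposite strand cover 33.3% of the exon bases of CAVIN3, which the strand-specific counts keep apart.

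CAVIN2 (ENSG00000168497.4, chromosome 2, 191834302 to 191847255), also called SDPR, whose protein shapes membrane curvature in caveolae, had 12, 8 and 10 counts in the Yes T348I libraries and 7, 11 and 9 counts in the Yes WT libraries. At 0.623 ± 0.0785 CPM in Yes T348I and 0.597 ± 0.167 CPM in Yes WT (SD, n = 3 each), it was too low to be tested. A small or moderate change could go unseen at this depth.

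The neck ATPase gene EHD2 (ENSG00000024422.11, chromosome 19, 47713343 to 47743134) was well expressed and differed little. It was at 303, 282 and 289 CPM in the Yes T348I libraries and at 299, 308 and 305 CPM in the Yes WT libraries, so that the groups overlapped. Its log2 fold change was -0.059 (SE 0.03, edgeR adjusted p = 0.13), with a 95% interval of -0.12 to 0.0061 that lies far from the changes of CAV1 and CAVIN1. With upper quartile factors or library size only it passed the threshold as lower (log2 fold change -0.10 with each, adjusted p = 0.00983 and 0.017), and likewise without Yes T348I replicate 1 (log2 fold change -0.082, adjusted p = 0.0368). The value was nearer to 0 without Yes T348I replicate 2 (log2 fold change -0.032, adjusted p = 0.443) and with no low-count filter (log2 fold change -0.033, adjusted p = 0.553).

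The PACSIN genes, whose F-BAR proteins bend the neck, pointed in opposite directions. PACSIN2 (ENSG00000100266.18, chromosome 22, 42835412 to 43015145), the broadly expressed member, was at 93.4, 83.2 and 86.3 CPM in the Yes T348I libraries and at 97.9, 89.4 and 96.5 CPM in the Yes WT libraries, and the groups overlapped. Its call as lower was marginal (log2 fold change -0.11, SE 0.04, edgeR adjusted p = 0.0389). It ended without Yes WT replicate 1 (adjusted p = 0.19) or 3 (adjusted p = 0.141), without Yes T348I replicate 2 (adjusted p = 0.209) or 3 (adjusted p = 0.148), with no low-count filter (adjusted p = 0.193) and with DESeq2 (adjusted p = 0.113). On its strand 3.40% of its exon bases are shared with ARFGAP3.

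PACSIN3 (ENSG00000165912.15, chromosome 11, 47177525 to 47186443), best known from muscle, was at 40.0, 35.5 and 37.5 CPM in the Yes T348I libraries and at 34.6, 35.8 and 34.7 CPM in the Yes WT libraries. The overlap came from Yes T348I replicate 2, the lowest of its group. The gene did not pass (log2 fold change 0.11, SE 0.06, edgeR adjusted p = 0.0966), but did so without that library (log2 fold change 0.16, adjusted p = 0.025). Its value was smaller without Yes T348I replicate 1 (log2 fold change 0.068, adjusted p = 0.374) and with upper quartile factors (log2 fold change 0.071).

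**Figure D1:**
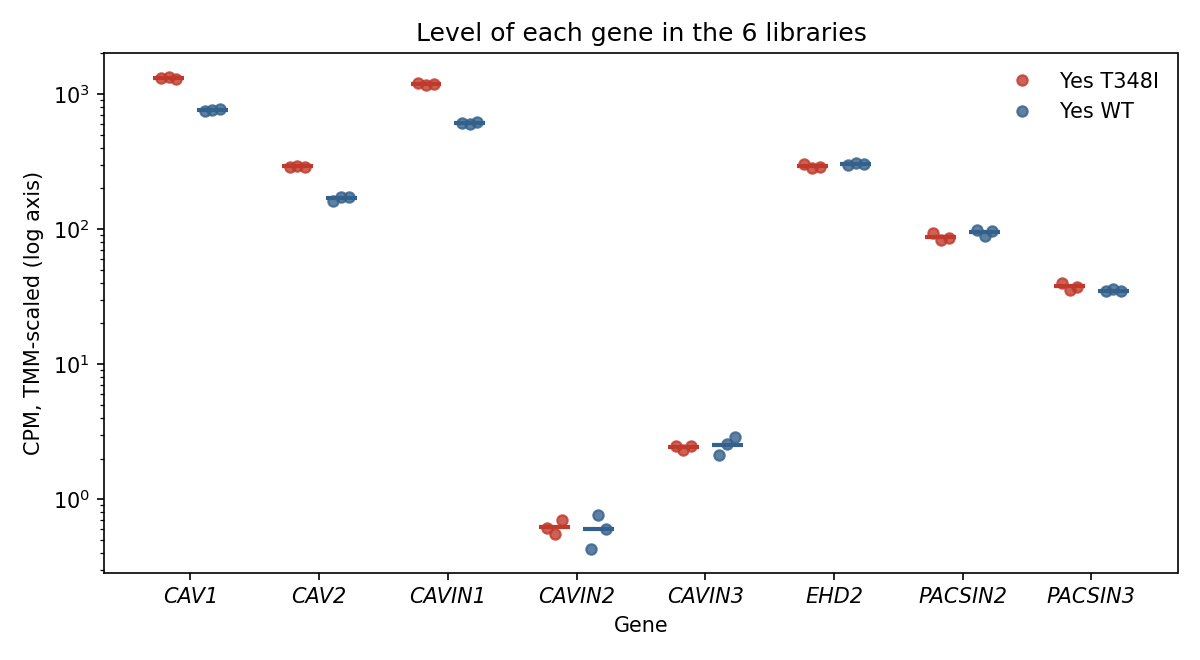
Level of the 8 genes in CPM (TMM-scaled, log axis), with 1 point per library, Yes T348I in red on the left and Yes WT in blue on the right of each gene, and a bar at each group mean. CAV1, CAV2 and CAVIN1 are separated by group, with CAV1 at 1293 to 1347 CPM in Yes T348I and 747 to 771 CPM in Yes WT, whereas the points of the other 5 genes overlap.

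Per kilobase of exon, which allows genes to be set against each other, CAV1 and CAVIN1 stood far above the rest. The level of CAV1 was 322 ± 6.89 CPM per kilobase in Yes T348I and 186 ± 3.04 CPM per kilobase in Yes WT, and that of CAVIN1 was 312 ± 5.12 CPM per kilobase in Yes T348I and 160.0 ± 3.60 CPM per kilobase in Yes WT (SD, n = 3 each). In rank among 12390 tested protein-coding genes, CAV1 was 53rd to 56th in the Yes T348I libraries and 96th to 101st in the Yes WT libraries, and CAVIN1 was 55th to 60th in Yes T348I and 120th to 128th in Yes WT. In Yes T348I the levels lay next to each other, with CAV1 at 317 to 330 CPM per kilobase and CAVIN1 at 307 to 318, although CAV1 was above CAVIN1 in each library. The gap depends on the length used, since with the longest transcript CAV1 was at 404 to 421 CPM per kilobase in Yes T348I and CAVIN1 was unaltered.

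EHD2 followed with 74.3 ± 2.80 CPM per kilobase in Yes T348I and 77.5 ± 1.26 in Yes WT, then CAV2 with 42.0 ± 0.469 in Yes T348I and 24.4 ± 1.04 in Yes WT. The order of EHD2 and CAV2 depends on the length used, since the annotated exons of CAV2 span 6926 bases together and 3301 bases in the longest transcript. With the longest transcript CAV2 was at 88.1 CPM per kilobase and EHD2 at 81.3 in Yes T348I, and at 51.2 and 84.8 in Yes WT. PACSIN2 had 19.2 ± 1.15 CPM per kilobase in Yes T348I and 20.8 ± 0.998 in Yes WT, PACSIN3 had 13.7 ± 0.823 in Yes T348I and 12.7 ± 0.253 in Yes WT, and CAVIN3 and CAVIN2 were at most 1.51 CPM per kilobase in either group mean.

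The ratio of 2 genes within a library does not depend on how libraries are scaled, and 6 pairs were compared. An exact two-sided permutation test of 3 libraries against 3 cannot give a p below 0.10, and 5 of the 6 pairs reached it (adjusted over the 6 pairs, p = 0.12), so none passed 0.05. The ratio of CAV2 to CAV1 was 0.222, 0.218 and 0.223 in the Yes T348I libraries and 0.215, 0.227 and 0.226 in the Yes WT libraries. These ranges overlapped, and the sign of the difference turned without Yes WT replicate 2 or 3 (difference of log2 ratios -0.0092, exact p = 0.70). The ratio of CAVIN1 to CAV1 was higher in every Yes T348I library, at 0.929, 0.873 and 0.921 in the Yes T348I libraries against 0.824, 0.786 and 0.810 in the Yes WT libraries (difference of log2 ratios 0.17, exact p = 0.10).

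Between scaffold and neck the proportion was lower in every Yes T348I library. The ratio of EHD2 to CAV1 was 0.232, 0.209 and 0.224 in the Yes T348I libraries and 0.400, 0.406 and 0.395 in the Yes WT libraries, a difference of -0.85 on the log2 scale (exact p = 0.10). The ratios of CAVIN3 and CAVIN2 to CAVIN1 were lower by 1.01 and 0.87 on the log2 scale (differences of -1.01 and -0.87), with no overlap, though few reads stand behind the numerators. The group means of EHD2, CAVIN3 and CAVIN2 lay close together, so these differences largely restate the rises of CAV1 and CAVIN1. The ratio of PACSIN3 to PACSIN2 was 0.429, 0.427 and 0.435 in the Yes T348I libraries and 0.353, 0.401 and 0.360 in the Yes WT libraries, also without overlap (difference of log2 ratios 0.21, exact p = 0.10).

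**Figure D2:**
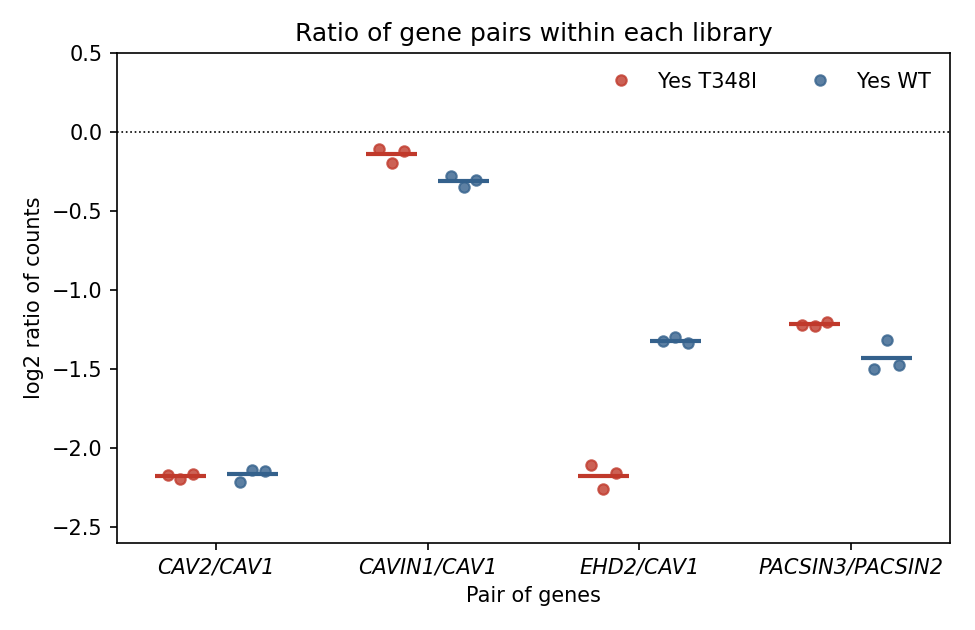
Log2 ratio of the counts of 4 gene pairs within each library, Yes T348I in red on the left and Yes WT in blue on the right, with a bar at each group mean and a dotted line at equal counts. The ratio of CAV2 to CAV1 overlaps between groups, and that of EHD2 to CAV1 averages -2.18 in Yes T348I and -1.32 in Yes WT.

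Among the paralogs, EHD4 had a log2 fold change between those of CAV1 and CAVIN1, whereas EHD2 did not pass. EHD4, which encodes an ATPase of the same family and is known from endosomal membranes, was at 120.3 ± 1.74 CPM in Yes T348I and 66.3 ± 0.562 CPM in Yes WT (SD, n = 3 each; log2 fold change 0.86, SE 0.04, edgeR adjusted p = 1.82e-21). EHD1, which acts in endocytic recycling, was at 106 ± 5.15 CPM in Yes T348I and 82.4 ± 4.07 CPM in Yes WT (log2 fold change 0.37, SE 0.04, edgeR adjusted p = 1.08e-09). EHD3 did not pass (log2 fold change -0.12, SE 0.08, edgeR adjusted p = 0.184) at 16.6 ± 0.0339 CPM in Yes T348I and 18.1 ± 0.871 CPM in Yes WT.

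CAVIN4, a cavin known from muscle, was called lower at 4.36 ± 0.225 CPM in Yes T348I and 5.45 ± 0.394 CPM in Yes WT (SD, n = 3 each; log2 fold change -0.33, SE 0.14, edgeR adjusted p = 0.0385). This call ended with DESeq2 (adjusted p = 0.159), with no low-count filter (adjusted p = 0.098), and without Yes WT replicate 1 or 2 or Yes T348I replicate 1 or 3 (adjusted p = 0.152, 0.0644, 0.146 and 0.0665). The muscle caveolin CAV3 had 0 counts in all 6 libraries, and the neuronal PACSIN1 had at most 5, so that neither was tested. Of the 6 paralogs, 2 rose, 1 fell, 1 did not pass and 2 were not tested. Among those tested 75% were called, against 55.3% of all genes.

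**Figure D3:**
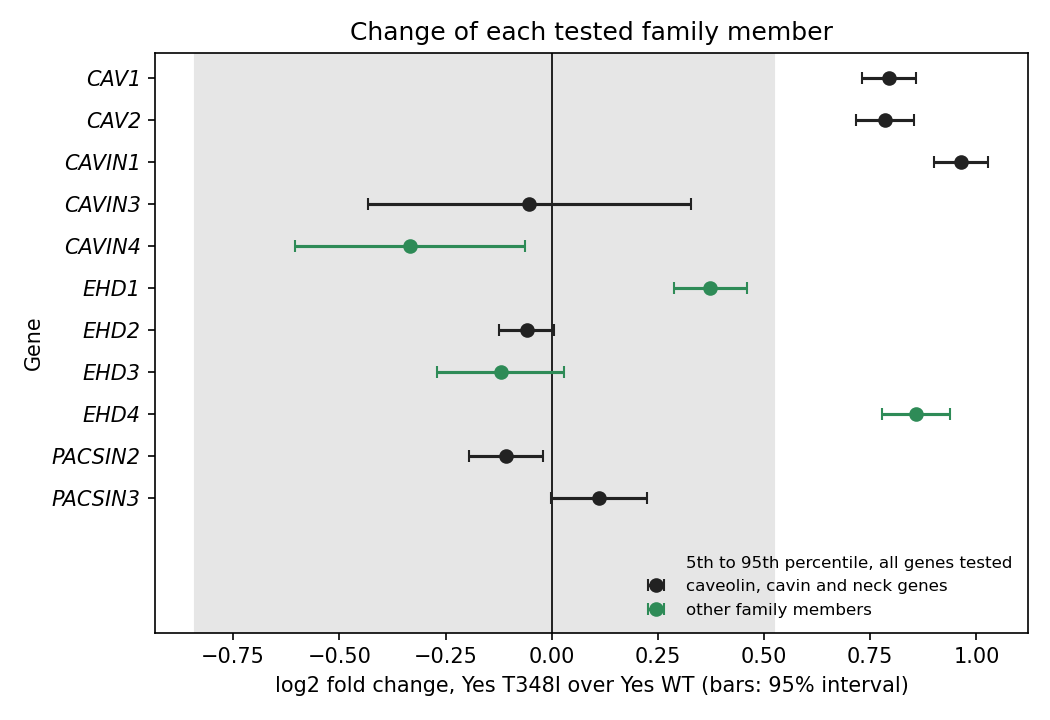
Log2 fold change (Yes T348I over Yes WT) of the 7 tested genes of the group in black and of 4 tested paralogs in green, with bars of the 95% interval and a grey band from the 5th to the 95th percentile of all genes tested (-0.84 to 0.52). CAV1, CAV2, CAVIN1 and EHD4 lie to the right of the band, and the neck genes EHD2, PACSIN2 and PACSIN3 lie near 0.

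CAV1 and CAV2 lie side by side on chromosome 7, and the nearest tested protein-coding genes on either side moved by less. Before CAV2, TES (116210493 to 116258783), which encodes the focal adhesion protein testin, was at 100.1 ± 0.836 CPM in Yes T348I and 71.4 ± 0.582 CPM in Yes WT (SD, n = 3 each; log2 fold change 0.49, SE 0.04, edgeR adjusted p = 1.64e-13). The next gene out, MDFIC, did not pass (log2 fold change 0.02, SE 0.04, edgeR adjusted p = 0.748), and its sign turned with upper quartile factors or library size only. After CAV1, the receptor gene MET (116672390 to 116798386) rose slightly (log2 fold change 0.12, SE 0.03, edgeR adjusted p = 0.00103). CAPZA2 (116811070 to 116922049), a subunit of the actin capping protein, rose by 0.22 (SE 0.04, edgeR adjusted p = 5.13e-06).

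Outside the 8 genes followed, which were left out of this search, the profiles over the 6 libraries most like that of CAV1 were those of BCL2, TPM1, SGK1, ZBTB18 and DKC1. Likeness was the root mean square distance between centred log2 CPM values, which was 0.0278 for BCL2 and at most 0.0374 for the other 4, out of 7754 called genes of at least 1 CPM. With 2 groups of 3 libraries such a distance mostly reflects the size of the change. BCL2, an apoptosis inhibitor, was at 19.6 ± 0.374 CPM in Yes T348I and 11.4 ± 0.186 CPM in Yes WT, and TPM1, a tropomyosin of actin filaments, at 938 ± 19.9 CPM in Yes T348I and 560.3 ± 6.62 CPM in Yes WT (SD, n = 3 each).

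Partners that tie caveolae to actin or regulate them were mostly higher. Of 20 such genes, all tested, 14 rose and 2 fell, where 28.0% of all genes rose and 27.3% fell. In total 80.0% were called, against 55.3% of all genes, a share not matched for expression level. Their median log2 fold change was 0.16 against -0.013 over all genes. This list includes YES1, which the lines were made to express. The tyrosine phosphatase gene PTPN1 was at 215 ± 3.89 CPM in Yes T348I and 162 ± 7.13 CPM in Yes WT (SD, n = 3 each), and rose (log2 fold change 0.41, SE 0.04, edgeR adjusted p = 4.99e-13). SRC, the kinase related to Yes, fell by 0.54 on the log2 scale (SE 0.05, edgeR adjusted p = 1.94e-13). DNM2, the dynamin that cuts the neck, did not pass (log2 fold change -0.0049, SE 0.04, edgeR adjusted p = 0.928) and is named outside the rule for its role.

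Receptors, channels and enzymes described in caveolae went mostly the other way. Of 18 such genes 16 were tested, and 12 fell and 2 rose, where 27.3% of all genes fell and 28.0% rose. In total 87.5% were called, against 55.3% of all genes, again not matched for expression level. Their median log2 fold change was -0.27. EGFR, the receptor of epidermal growth factor, was among those that rose, at 293 ± 11.1 CPM in Yes T348I and 191 ± 8.38 CPM in Yes WT (SD, n = 3 each; log2 fold change 0.61, SE 0.04, edgeR adjusted p = 2.46e-18). TGFBR2, a receptor of TGF-beta, was at 219 ± 8.03 CPM in Yes T348I and 281 ± 12.4 CPM in Yes WT, and fell by 0.36 on the log2 scale (SE 0.04, edgeR adjusted p = 1.90e-11).

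Scaffolds of flat membrane domains were called in either direction, more of them higher than lower. Of 11 genes of the flotillin and stomatin superfamily 9 were tested, and 5 rose and 1 fell, where 28.0% of all genes rose and 27.3% fell. Of these 9, 66.7% were called, against 55.3% of all genes, with a median log2 fold change of 0.19. The endoplasmic reticulum member ERLIN1 rose (log2 fold change 0.53, SE 0.04, edgeR adjusted p = 1.07e-14), and the mitochondrial members PHB1 and STOML2 by 0.29 (SE 0.03, adjusted p = 1.02e-09) and 0.27 (SE 0.04, adjusted p = 5.88e-07). The flotillin genes themselves split, with FLOT1 higher (0.20, SE 0.04, edgeR adjusted p = 4.22e-05) and FLOT2 lower (-0.13, SE 0.05, edgeR adjusted p = 0.0212). Like DNM2, they were named after their values were seen, and FLOT2 was not called with no low-count filter, with DESeq2, or without Yes WT replicate 3 or Yes T348I replicate 3.

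Of 28 clathrin endocytosis genes, all tested, 6 rose and 9 fell (53.6% called, against 55.3% of all genes). Their median log2 fold change was -0.09, and the number that fell was 16 with upper quartile factors or library size only. NUMB, an endocytic adaptor, fell by 0.48 on the log2 scale (SE 0.04, edgeR adjusted p = 9.02e-15) and EPN2, an epsin, by 0.30 (SE 0.03, edgeR adjusted p = 1.13e-10). PICALM, which binds clathrin and lipids, rose (log2 fold change 0.29, SE 0.03, edgeR adjusted p = 9.40e-10).

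The F-BAR family beyond the PACSINs was tested for 13 of 18 genes, of which 5 rose and 2 fell. Of those tested 53.8% were called, against 55.3% of all genes, with a median log2 fold change of 0.08. Under upper quartile factors or library size alone 4 fell, as did 4 when Yes T348I replicate 2 was left out. ARHGAP29, a RhoA-directed GTPase-activating protein, was at 320.3 ± 12.4 CPM in Yes T348I and 197 ± 2.59 CPM in Yes WT (SD, n = 3 each; log2 fold change 0.70, SE 0.03, edgeR adjusted p = 5.94e-21). FCHSD1 and SRGAP2 fell by 0.80 (SE 0.09, edgeR adjusted p = 1.37e-10) and 0.35 on the log2 scale (SE 0.04, edgeR adjusted p = 6.21e-10), though SRGAP2 has near-identical copies in the genome and its count is uncertain. FNBP1, FNBP1L, TRIP10 and FER are counted in this list and among the caveolar partners.

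Markers of endothelium and adipocytes, cells known to be rich in caveolae, and of leukocytes were near 0. The 9 endothelial markers summed to 1.28 to 1.97 CPM per library in Yes T348I and 1.66 to 1.96 CPM in Yes WT, with TEK, CLDN5 and PLVAP at 0 counts throughout. The 6 adipocyte markers summed to 1.37 to 2.36 CPM in Yes T348I and 2.21 to 2.54 CPM in Yes WT, with LEP and FABP4 at 0. The 7 leukocyte markers summed to 0.987 to 1.74 CPM in Yes T348I and 2.63 to 3.36 CPM in Yes WT, with CD3E at 0. Of each of these 3 lists only 1 marker was tested, and it was lower for the endothelial and leukocyte lists and did not pass for the adipocyte list. The 7 smooth muscle markers summed to 131 to 143 CPM in Yes T348I and 98.5 to 99.5 CPM in Yes WT, mainly from SMTN, at 111 ± 4.18 CPM in Yes T348I and 76.3 ± 0.139 CPM in Yes WT (SD, n = 3 each; log2 fold change 0.54, SE 0.04, edgeR adjusted p = 8.78e-15). Of this list 4 markers were tested and 2 rose, SMTN and CNN1 (50% called, against 55.3% of all genes, of which 28.0% rose). CNN1 was at 17.9 ± 1.28 CPM in Yes T348I and 12.9 ± 1.17 CPM in Yes WT (log2 fold change 0.48, SE 0.09, edgeR adjusted p = 7.32e-06). The defining marker MYH11 was at 0.122 ± 0.109 CPM in Yes T348I and 0.373 ± 0.0846 CPM in Yes WT, and was not tested for low counts. The 12 hepatocyte markers summed to 53.1 to 56.0 CPM in Yes T348I and 63.5 to 68.7 CPM in Yes WT, mainly from FGB, and 2 of the 3 tested fell. The share called among those 3 was 66.7%, against 55.3% of all genes, of which 27.3% fell. Of the 6 keratin and epithelial adhesion genes, KRT7 rose (log2 fold change 0.96, SE 0.04, edgeR adjusted p = 2.34e-24) and CDH1 fell by 1.16 on the log2 scale (SE 0.21, edgeR adjusted p = 8.47e-06), and 3 of the 5 tested did not pass. The share called among those 5 was 40%, against 55.3% of all genes. The part of the smooth muscle and keratin genes in the changes of CAV1, CAV2 and CAVIN1 was not tested.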

How the data were processed

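Each library has a table deposited by the authors with whole-number counts for every gene, once without regard to strand and once for each strand. The column for the strand that holds most gene reads, the reverse one, was used. Per the submitters' processing notes, the work involved STAR 2.5.1b, Trimmomatic 0.35, CASAVA 1.8.2 and the build GRCh38, with no roles stated. No annotation release is given in those notes. The 4 lines that name no gene were dropped before library sizes were taken. Reads on no annotated feature made up 6.37% to 6.86% of uniquely mapped reads in Yes T348I and 7.40% to 7.87% in Yes WT, and reads fitting several genes 3.11% to 3.15%. Symbols came from a table of gene names, and positions and exon lengths from GENCODE 29.

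The main test was that of edgeR 4.0.16, run under R 4.3.3 (filterByExpr with a minimum count of 10, TMM, quasi-likelihood F-test, no covariate) over 14723 genes, with Benjamini-Hochberg adjustment over all of them. Libraries of the same group differed by more than sampling noise (chi-square per degree of freedom 1.48 to 5.21). The value of 5.21 was that of Yes T348I replicates 1 and 2, and the next highest was 2.29. CPM are TMM-scaled, and 95% intervals use the normal quantile times the SE. Same-numbered libraries were not treated as pairs in the main test. Alternatives were other scalings, no filter, DESeq2 1.42.0, limma-voom (limma 3.58.1), unstranded counts, a replicate block and leaving out each library. Ratios were tested by exact permutation (scipy 1.17.1).

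The genes followed and the lists were chosen with earlier results of these data known. Named beside them are all paralogs, YES1, up to 3 genes per list with the lowest adjusted p, and the neighbours of CAV1 and CAV2. The 5 genes outside the group with profiles nearest to CAV1 are named too. Some genes that this rule names are not reported here.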

Additional observations from a re-analysis of the deposited data

Results flagged for a closer look

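Reads on the strand opposite to the gene, which the comparisons do not use, were more frequent in Yes T348I for both CAV1 and CAVIN1. For CAV1 they summed to 465 in Yes T348I and 298 in Yes WT, and for CAVIN1 to 1338 in Yes T348I and 700 in Yes WT. Once scaled to its gene total, each Yes T348I library was above each Yes WT library. This separation, with a minimum number of such reads, was the rule that flagged these genes, so it is no separate result. The other genes of the group did not meet it, and no share over all genes stands beside it. As a share of the reads on the strand of the gene, the opposite-strand reads were 0.687% to 0.825% in Yes T348I and 0.761% to 1.03% in Yes WT for CAV1. For CAVIN1 they were 2.01% to 2.70% in Yes T348I and 2.23% to 2.91% in Yes WT, and these ranges overlap for each gene.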

How the results depend on the processing

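The rises of CAV1, CAV2 and CAVIN1 passed the threshold under all 14 alternatives, with log2 fold changes of 0.75 to 0.82, 0.74 to 0.81 and 0.92 to 0.99. No gene of the group reached 2-fold under any of them. The number called lower was 1, but 2 with upper quartile factors or library size only (EHD2 and PACSIN2), 0 with no low-count filter or DESeq2, and 0 to 2 when single libraries were left out, and the number called higher was then 3 to 4. The count of paralogs lower was 1, but 0 with no low-count filter or DESeq2 and 0 to 1 with single libraries left out, and the same holds for flotillin and stomatin genes lower (0 and 0, and 0 to 1). Clathrin genes lower were 9, but 16 with upper quartile factors or library size only, and F-BAR genes lower were 2, but 4 with either, and 2 to 4 with libraries left out. With libraries left out CAVIN3 ranged from -0.1661 to 0.0531 (0.0531 without Yes WT replicate 3), MDFIC from -0.0002 (without Yes WT replicate 2) to 0.0298, and the CAV2 to CAV1 difference from -0.0329 to 0.0044. MDFIC also turned, to -0.0219 with upper quartile factors and -0.0187 with library size only. The cause was not tested. With the longest transcript the levels in CPM per kilobase in Yes T348I were 411 for CAV1, 88.1 for CAV2, 2.06 for CAVIN3, 81.3 for EHD2, 27.0 for PACSIN2 and 18.8 for PACSIN3, and in Yes WT 237 for CAV1, 51.2 for CAV2, 2.15 for CAVIN3, 84.8 for EHD2, 29.1 for PACSIN2 and 17.4 for PACSIN3. With the replicate number as a block 4054 genes were higher and 3936 lower, against 4123 and 4024 without, and 3 higher and 1 lower of the group were again counted. Deviations of same-numbered libraries correlated at -0.028, 0.0014 and -0.019 over genes. These values show no shared deviation, which does not tell whether such libraries were handled together. Depth limits CAVIN2 and CAVIN3.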
